A study of Mus musculus with 16 samples.

Results

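The 9 genes described here, Tox, Tox2, Nr4a1, Nr4a2, Nr4a3, Batf, Irf4, Nfatc1 and Maf, encode transcription factors that are linked to the exhausted state of CD8+ T cells. They were chosen by name, with earlier results of these data known, and make up 9 of the 32285 genes listed in any of the 9 CD8 matrices. All 9 were listed in every matrix. Accepted kidney allografts were DBA/2J kidneys placed in C57BL/6J (B6) recipients and taken 1, 3 or 24 weeks later together with the recipient spleen. Rejecting allografts were B6 kidneys placed in DBA/2J recipients and taken with the recipient spleen at 1 week, so recipient strain and outcome cannot be told apart. Naive spleen was the untransplanted control. The deposited labels give strain C57BL/6J and genotype WT for all samples, no age and no immunosuppressive agent, and the mice were male. CD8+ T cells were named by the authors from clusters of viable sorted CD45+ cells, which were run on a droplet platform that counts unique molecular identifiers (UMIs, each standing for 1 captured RNA molecule). Kidneys were perfused and digested with collagenase while spleens were ground mechanically, so tissue and dissociation cannot be told apart either.

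Persistent stimulation through the T cell receptor raises calcium, which sends NFAT proteins to the nucleus. NFAT acting with AP-1 partners drives effector genes, whereas NFAT acting without them induces the NR4A nuclear receptors and TOX, a high mobility group box protein that is needed for exhausted CD8+ T cells to persist and to keep up inhibitory receptors such as PD-1, the product of Pdcd1. BATF and IRF4 bind composite DNA elements together and follow the strength of the receptor signal, and MAF favours inhibitory receptors and IL-10.

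Each matrix held 2 to 5 libraries, read from the tag in the cell barcode, and there were 32 libraries in all. Of 72639 cells, 56585 had at least 1 UMI of Cd8a or Cd8b1 and were used. Of those, 23786 carried at least 1 Pdcd1 UMI (Pdcd1-positive) and 32799 had none (Pdcd1-negative). The libraries held 153266 to 22782080 UMIs in these cells, with a median of 1764 to 6069 UMIs per cell. The 496 pairs of libraries shared at most 21 barcodes, or 1.79% of the smaller library. All 2184 CD8 cells of the rejecting kidney also stood, with identical counts, in the matrix of all its CD45+ cells, which served here only as background. The share of cells with a Cd8a or Cd8b1 UMI was 84.8% in 1-week and 96.8% in 3-week accepted kidney, 77.2% in rejecting kidney, 100% in rejecting and 96.1% in naive spleen, but 44.2% and 46.8% in the 1- and 3-week accepted spleen. Pdcd1 and kidney genes at 24 weeks ran against the labels as read from the other samples. The libraries labelled 24-week kidney had a Cd8a or Cd8b1 UMI in 47.4% of cells and a Pdcd1 UMI in 0.681% of those, while the libraries labelled 24-week spleen had 94.6% and 59.8%. A Pdcd1 UMI was found in 49.3 to 63.8% of CD8 cells of the other kidney groups and in at most 2.30% of those of the other spleen groups. The first measure did not mark the tissue, since rejecting and naive spleen were as high as the grafts. The 5 B cell markers summed to 82.7 to 222 CPM in the libraries labelled 24-week kidney and 15.4 to 45.4 CPM in those labelled 24-week spleen, against 4.60 to 29.0 CPM in the other kidney and 30.0 to 884 CPM in the other spleen groups. Of 20 genes of kidney parenchyma, 12 had the higher mean in kidney and 4 in spleen at 1 week, 18 and 2 at 3 weeks, 8 and 3 in rejection, but 1 and 14 at 24 weeks. These libraries are therefore called by their labels, and no direction is drawn from them without that label.

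Levels are given as CPM, the UMIs of a gene scaled to the same total of UMIs in the CD8 cells of every library. A higher summed level can come from more cells with the RNA or from more RNA per cell, and the CPM cannot tell these apart. Differences are log2 ratios of the first to the second group with their standard error, tested with edgeR's quasi-likelihood test and Benjamini-Hochberg adjustment over all genes tested. A gene was called at an adjusted p under 0.05. The labels do not tie the tags to mice. The methods of the study name biological replicates at each time, as many as the tags of the accepted groups. A library was therefore taken as 1 mouse. The p-values measure the spread between libraries, except in the Pdcd1 splits and their differences. There a library block takes out the level of each library. Those p-values set the difference between positive and negative cells against its variation from library to library. With so few libraries, edgeR takes much of that variation from all genes together. The standard error and p of a gene can therefore be smaller than the spread over its own libraries would give. CPM of different genes are not per length and are not compared with each other.

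In the TOX family, Tox was highest in rejecting kidney. Tox (chromosome 4, 6686353 to 6991557, minus strand, GRCm38) stood at 1133 and 1148 CPM in the 2 rejecting kidney libraries, at 405, 308, 296, 317 and 329 CPM in 3-week accepted kidney and at 199, 181 and 149 CPM in 1-week accepted kidney. Rejecting spleen had 188, 196 and 236 CPM, 1-week accepted spleen 43.2, 43.4 and 42.0 CPM, 3-week accepted spleen 46.4 to 79.8 CPM and naive spleen 51.0 to 64.5 CPM. The libraries labelled 24-week kidney had 40.5 to 47.9 CPM and those labelled 24-week spleen 257 to 314 CPM. Rejecting kidney lay above every other library and 3-week above 1-week accepted kidney, whereas 1-week accepted kidney and rejecting spleen overlapped. Tox2 (chromosome 2, 163203125 to 163324170, plus strand), a less studied relative, was at 34.4 and 36.8 CPM in rejecting kidney, 14.4, 17.2 and 20.5 CPM in 1-week accepted kidney and 7.50 to 9.29 CPM in 3-week accepted kidney. Its highest value in 1- and 3-week accepted spleen was 3.81 CPM, while the libraries labelled 24-week spleen had 9.07 to 12.6 CPM and those labelled 24-week kidney at most 0.916 CPM. No Tox2 UMI was counted in any of the 5 naive spleen libraries, where 3 UMIs would be 0.620 to 0.864 CPM. Tox2 thus had the opposite order to Tox between the 1- and 3-week accepted kidneys.

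The 3 NR4A receptors are early response genes of the T cell receptor. Nr4a1 had 86.7, 91.1 and 78.9 CPM in 1-week accepted kidney, 32.8 to 41.1 CPM in 3-week accepted kidney, 26.2 and 18.4 CPM in rejecting kidney, 5.85 to 15.3 CPM in 1-week and 5.20 to 12.8 CPM in 3-week accepted spleen, 12.1 to 15.1 CPM in rejecting spleen and 1.65 to 3.75 CPM in naive spleen. Nr4a2 had 244, 238 and 185 CPM in 1-week accepted kidney and 461, 508, 515, 543 and 611 CPM in 3-week accepted kidney, against 9.25 to 20.7 CPM in the accepted spleens of both times. Its 2 rejecting kidney libraries were far apart at 366 and 146 CPM, and rejecting and naive spleen had 16.6 to 22.7 and 2.07 to 5.62 CPM. The 3 receptors shared the order of graft over spleen at 1 and 3 weeks and in rejection, but among these groups Nr4a1 was highest at 1 week and Nr4a2 at 3 weeks. Nr4a3 had 49.6 to 58.8 CPM in 1-week and 46.5 to 91.3 CPM in 3-week accepted kidney, 103 and 28.0 CPM in rejecting kidney and at most 12.0 CPM in 1- and 3-week accepted, rejecting or naive spleen. The libraries labelled 24-week spleen were above all others for Nr4a1 and Nr4a3 and overlapped with 3-week accepted kidney for Nr4a2, at 109 to 156 CPM of Nr4a1, 523 to 947 CPM of Nr4a2 and 191 to 312 CPM of Nr4a3, while those labelled 24-week kidney had at most 16.3, 16.5 and 11.1 CPM.

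The NR4A promoters are shown as those of 1 receptor family. All 9 members were higher in graft than in spleen at 1 and 3 weeks, so that difference does not set these 3 apart. The 3 receptors also parted in other comparisons. NR4A genes are known targets of CREB, which binds the cAMP response element. The bases printed are those just before the RefSeq start in GRCm38.p6, 5′ to 3′ on the gene's strand, with each copy of the motif TGACG or its reverse complement CGTCA in capitals.
Nr4a1 (chr15:101266596-101266845, plus strand): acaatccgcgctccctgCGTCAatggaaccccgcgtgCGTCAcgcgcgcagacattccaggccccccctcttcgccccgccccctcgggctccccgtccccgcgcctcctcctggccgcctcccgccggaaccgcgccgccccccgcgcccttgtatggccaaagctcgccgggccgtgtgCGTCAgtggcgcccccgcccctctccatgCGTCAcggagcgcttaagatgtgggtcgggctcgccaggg
Nr4a2 (chr2:57124004-57124253, minus strand): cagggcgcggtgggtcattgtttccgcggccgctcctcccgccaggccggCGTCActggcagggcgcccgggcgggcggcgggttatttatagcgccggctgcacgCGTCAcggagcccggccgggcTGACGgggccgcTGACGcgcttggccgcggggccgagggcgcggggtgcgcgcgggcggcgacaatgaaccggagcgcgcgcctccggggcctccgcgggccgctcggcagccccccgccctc
Nr4a3 (chr4:48045055-48045152, plus strand, the part of the window outside annotated exons): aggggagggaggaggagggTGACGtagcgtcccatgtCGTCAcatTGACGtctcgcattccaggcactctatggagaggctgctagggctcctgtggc
The Nr4a1 and Nr4a2 windows of 250 bases hold 4 copies each and the full Nr4a3 window also holds 4, of which 3 stand in the printed part. At least 4 copies stood in 45 of 32851 windows of that length (0.137%), and at least 1 in 17.8%. Among the other members with a RefSeq window, Batf had 1 copy, Irf4 had none and Tox2 had 1 in the third of its 5 windows. Tox and Maf had no entry and the promoter of Nfatc1 was left out, so 6 of 9 members were read. A match is a description of these letters and not a measured binding site.

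Nfatc1, the NFAT member that is induced on its own activation, stood at 120 to 145 CPM in 3-week accepted kidney, 77.6, 62.0 and 61.5 CPM in 1-week accepted kidney and 128 and 132 CPM in rejecting kidney. The spleens lay closer to the graft than for any NR4A receptor, with 46.1 to 48.8 CPM in 1-week and 54.4 to 67.9 CPM in 3-week accepted spleen, 52.2 to 93.1 CPM in rejecting spleen and 48.8 to 58.8 CPM in naive spleen. Batf (chromosome 12, 85686669 to 85709087, plus strand) had 66.4, 68.1 and 80.2 CPM in 1-week accepted kidney, 46.7 and 43.7 CPM in rejecting kidney and 25.6 to 38.2 CPM in 3-week accepted kidney. Batf in spleen ranged from 18.8 to 41.4 CPM over the 1- and 3-week accepted, rejecting and naive libraries, so that 3-week kidney overlapped with these spleens as a whole. At 24 weeks as labelled, spleen had 43.1 to 64.1 CPM of Batf and kidney 16.0 to 26.9 CPM. Irf4 (chromosome 13, 30749226 to 30766976, plus strand) had 21.3, 16.4 and 22.3 CPM in 1-week accepted kidney, 8.23 to 13.8 CPM in 3-week accepted kidney and 31.8 and 28.0 CPM in rejecting kidney. Rejecting spleen was scattered for Irf4, with 31.5, 6.52 and 22.7 CPM, against 6.39 to 10.9 CPM in 1-week and 0 to 2.40 CPM in 3-week accepted spleen and 0.221 to 1.75 CPM in naive spleen.

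Maf (chromosome 8, 115682942 to 115707794, minus strand) varied widely among libraries of the same group. It had 56.9, 29.3 and 32 CPM in 1-week accepted kidney, 30.3, 24.3, 14.7, 15.2 and 14.8 CPM in 3-week accepted kidney and 56.9 and 9.97 CPM in rejecting kidney. Spleen had 14.2 to 16.3 CPM at 1 week, 8.03 to 17.3 CPM at 3 weeks, 6.29 to 9.07 CPM in rejection and 0.826 to 4.0 CPM in naive mice. Kidney and spleen overlapped at 3 weeks, but not at 1 week or in rejection. At 24 weeks as labelled, kidney had 4.88 to 14.7 CPM and spleen 49.9 to 84.4 CPM.

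**Figure D1:**
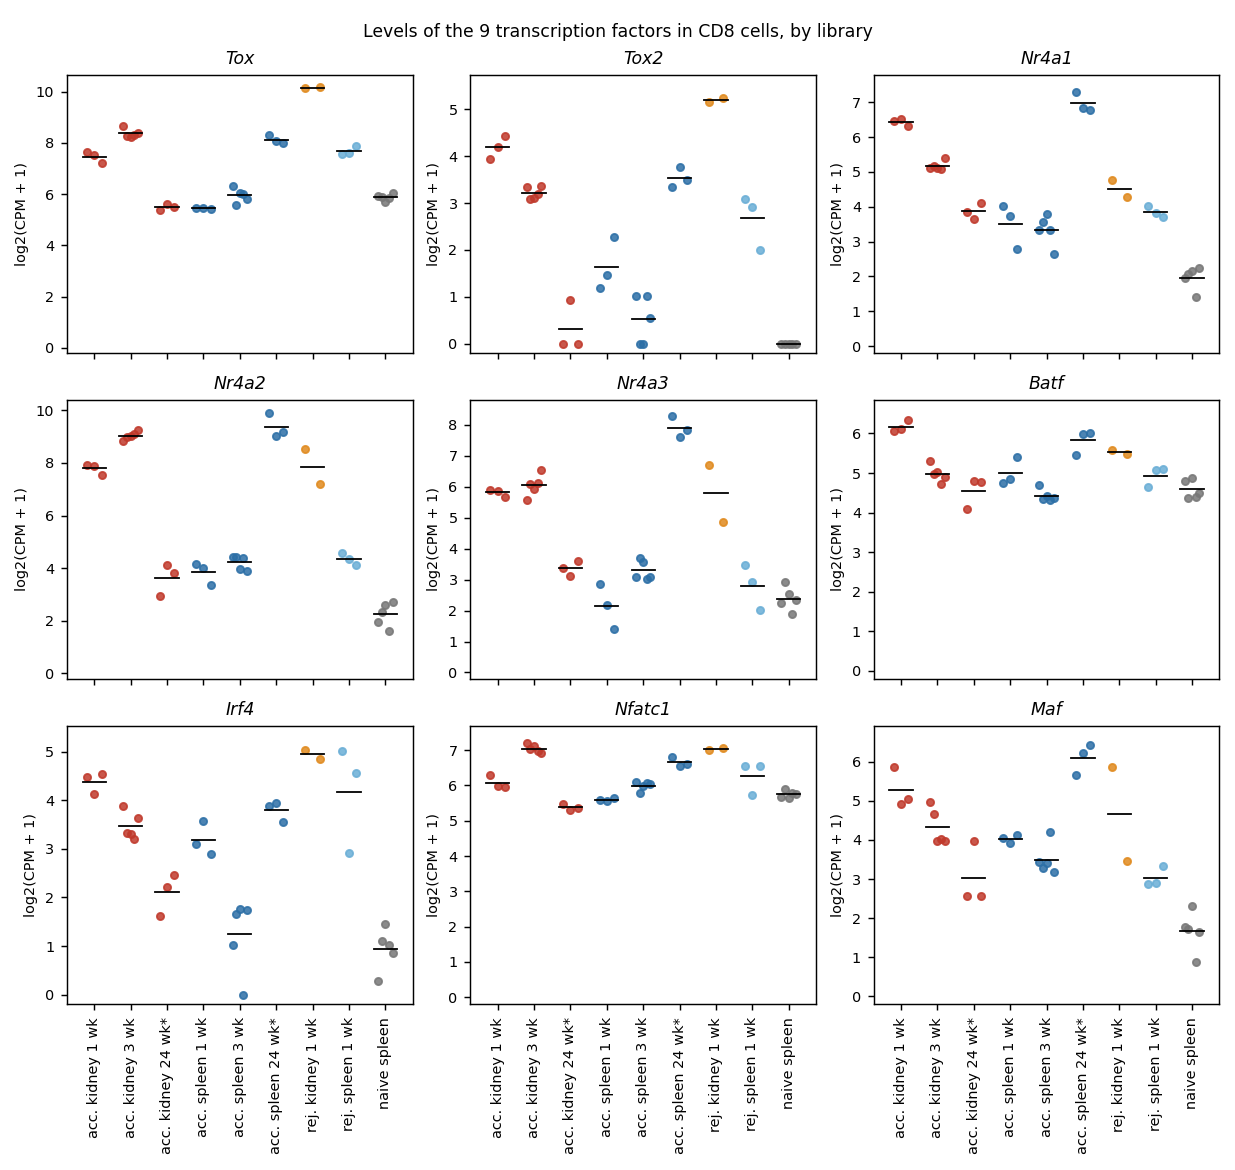
The level of each of the 9 genes in every library, as log2(CPM + 1) on the vertical axis, for the 9 groups on the horizontal axis. Points are libraries and bars the mean of the log2 values, and an asterisk marks the 24-week groups, whose labels go against their markers. Tox in rejecting kidney (1133 and 1148 CPM) stands above all other libraries, and the 3 NR4A receptors in 1- and 3-week accepted kidney stand above the 1- and 3-week accepted, rejecting and naive spleens but, for Nr4a1 and Nr4a3, below the libraries labelled 24-week spleen.

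The comparison of graft with recipient spleen asked whether these factors were higher in CD8+ T cells inside the accepted kidney. All 9 were called higher in accepted kidney than in accepted spleen at 1 week, where 49.4% of 11133 genes tested were called and 30.0% were called higher. All 9 were also called higher at 3 weeks, where 65.4% of 10619 genes were called, 48.6% higher and 16.8% lower. The median log2 difference of the members was 2.04 at 1 week and 2.42 at 3 weeks, against 0.08 and 0.28 over all genes. Nr4a2 had the largest value, 4.05 ± 0.20 at 1 week (16.52-fold, edgeR adjusted p = 3.09e-08) and 4.86 ± 0.11 at 3 weeks (29.12-fold, edgeR adjusted p = 5.45e-18). At 1 week Nr4a3 was close to it, and without library 7S1 Nr4a3 was the larger, at 4.52 against 4.23. Nr4a3 was higher by 3.92 ± 0.28 and 2.86 ± 0.20, Nr4a1 by 2.99 ± 0.24 and 1.88 ± 0.15, and Tox2 by 2.83 ± 0.29 and 4.04 ± 0.38. Tox2 had 6 UMIs over the 5 libraries of 3-week accepted spleen and passed the filter on low counts through the kidney libraries. Its 3-week call and size therefore rest on a spleen level near the floor. Tox was higher by 2.04 ± 0.12 at 1 week (edgeR adjusted p = 1.60e-07) and 2.42 ± 0.11 at 3 weeks (edgeR adjusted p = 4.53e-13).

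The other members were also higher in graft. Irf4 was higher in graft by 1.31 ± 0.20 at 1 week and 2.65 ± 0.33 at 3 weeks, Batf by 1.16 ± 0.16 and 0.58 ± 0.12, and Nfatc1 by 0.49 ± 0.12 and 1.06 ± 0.08. Irf4 had 20 UMIs over the 5 libraries of 3-week accepted spleen and passed the filter on low counts through the kidney libraries. Its 3-week value thus also rests on a spleen level near the floor. Maf was higher by 1.35 ± 0.23 at 1 week (edgeR adjusted p = 0.000562) and 0.92 ± 0.25 at 3 weeks (edgeR adjusted p = 0.00341). For Maf the result rested on the choice of cells. Over all cells of the matrices, with or without a Cd8a or Cd8b1 UMI, it was -0.09 at 1 week (edgeR adjusted p = 0.683, with 1.07e-08 to 0.683 over its alternatives) and -0.37 at 3 weeks (edgeR adjusted p = 0.0855, with 4.87e-05 to 0.0855). Cell type markers differed along with the tissue. The summed level of 5 B cell markers was 8.94 to 9.44 CPM in 1-week and 12.4 to 29.0 CPM in 3-week accepted kidney but 415 to 884 and 110 to 317 CPM in the spleens, that of 8 myeloid markers 181 to 337 CPM in the kidneys and 57.7 to 127 CPM in the spleens, and no marker of either list was at 0 in these groups. The 11 genes of dissociation stress and immediate early response summed to 1004 to 1369 CPM in 1-week kidney against 725 to 1635 CPM in its spleen, where Hspa1a was at 0, and to 2958 to 3663 CPM against 741 to 988 CPM at 3 weeks. Of the 4 NK cell markers, summed levels were 9.09 to 33.9 CPM in the kidneys and 38.4 to 73.7 CPM in the spleens, and the 3 CD4 and regulatory T cell markers had 21.2 to 36.1 and 5.01 to 8.65 CPM in 1- and 3-week kidney and 12.6 to 23.2 CPM in the spleens. The part of these in the difference was not tested.

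Rejecting kidney was also compared with its own spleen, where 17.2% of 8187 genes were called, 11.4% higher and 5.79% lower. There 8 members were tested and 4 were called higher, none lower, while Maf had too few counts. Nr4a2 was higher by 3.69 ± 0.42 (12.86-fold, edgeR adjusted p = 3.75e-05), Nr4a3 by 3.24 ± 0.63 (edgeR adjusted p = 0.00247), Tox2 by 2.65 ± 0.47 (edgeR adjusted p = 0.00128) and Tox by 2.46 ± 0.24 (5.50-fold, edgeR adjusted p = 1.05e-05). Nr4a1 (0.70 ± 0.42), Batf (0.63 ± 0.33), Nfatc1 (0.62 ± 0.28) and Irf4 (0.31 ± 0.39) did not pass the threshold, with edgeR adjusted p of 0.285, 0.206, 0.150 and 0.638. The 8 myeloid markers summed to 288 to 317 CPM in rejecting kidney and 102 to 189 CPM in its spleen (with 1 marker at 0 in each), the 5 B cell markers to 4.60 to 9.23 (2 at 0) and 91.3 to 366 CPM, and the 5 genes of dividing cells to 1008 to 3426 and 463 to 802 CPM, and their part in these differences was not tested. The smallest rejecting spleen library had 153266 UMIs, so differences of low genes had little depth behind them. Rejecting spleen held 9 UMIs of Tox2 and 11 of Nr4a3 over its 3 libraries. Both genes passed the filter on low counts through the kidney libraries, so their calls and sizes rest on a spleen level near the floor.

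At 24 weeks all 9 members were called lower in the libraries labelled kidney than in those labelled spleen, with a median log2 difference of -3.09 against -0.23 over all genes, where 53.8% of genes were called and 39.1% were called lower. Nr4a2 differed by -5.80 ± 0.25, Nr4a3 by -4.68 ± 0.19, Nr4a1 by -3.18 ± 0.17 and Tox by -2.65 ± 0.11. The sign was the opposite of that at 1 and 3 weeks for every member. Set against 3-week accepted kidney, the libraries labelled 24-week kidney were also called lower for all 9, where 71.1% of genes were called and 56.9% were called lower, from -5.42 ± 0.17 for Nr4a2 and -2.90 ± 0.12 for Tox to -0.40 ± 0.16 for Batf (edgeR adjusted p = 0.0355). The Batf call did not hold without library TK1, TK3 or 6MK1 (-0.31, -0.39 and -0.22) and turned to 0.08 with TMM scaling, and that of Maf (-1.30 ± 0.36) became 0.58 over all cells of the matrices. DESeq2 called 7 of the 9 members here. Tox2 had 3 UMIs over the 3 libraries labelled 24-week kidney and passed the filter on low counts through the other group in both comparisons. Its calls and sizes therefore rest on a level near the floor. Leaving out 1 library gave -8.36 to -4.34 for Tox2 against spleen and -9.14 to -4.06 against 3-week kidney. Both comparisons rest on labels that the markers went against.

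The course from 1 to 3 weeks inside the accepted kidney split the list. Of 9 members, 3 were called higher at 3 weeks (Nr4a2, Nfatc1 and Tox) and 5 lower (Nr4a1, Batf, Tox2, Maf and Irf4), where 74.8% of 11638 genes were called, 53.6% higher and 21.2% lower. The median over members was -0.96 against 0.41 over all genes. Nr4a2 rose by 1.25 ± 0.11 (2.37-fold, edgeR adjusted p = 1.08e-07), Nfatc1 by 0.97 ± 0.10 (edgeR adjusted p = 4.25e-07) and Tox by 0.91 ± 0.12 (1.88-fold, edgeR adjusted p = 4.23e-06). Nr4a1 fell by 1.27 on the log2 scale (SE 0.09, edgeR adjusted p = 1.19e-08), Batf by 1.21 (SE 0.11), Tox2 by 1.06 (SE 0.13), Irf4 by 0.96 (SE 0.16) and Maf by 0.98 (SE 0.24, edgeR adjusted p = 0.00188). The rise of Tox was lost with an offset for intron length, given with the rejecting tissues (0.12, edgeR adjusted p = 0.294), which also gave 0.19 for Nfatc1. Nr4a3 differed by 0.26 ± 0.16 (edgeR adjusted p = 0.137), so within one receptor family 1 member rose, 1 fell and 1 did not pass the test. Without library TK1, however, Nr4a3 was called higher (0.37).

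Dividing cells changed at the same time. The 5 genes of dividing cells fell from a summed 1236 to 2423 CPM to 72.2 to 88.0 CPM, and all 5 were called lower, from Birc5 (-7.46 ± 0.28) to Top2a (-2.88 ± 0.16). Without cells that had a Mki67 or Top2a UMI, the fall of Maf was -0.38 (edgeR adjusted p = 0.182, with 3.35e-05 to 0.182 over its alternatives). No other call of the 8 changed with that step. Stress and immediate early genes moved the other way, with 7 of 11 called higher and 2 lower, from Hspa1b (2.52 ± 0.21) to Ier2 (-0.44 ± 0.10). The 3 CD4 and regulatory T cell markers, 2 of them called lower, went from a summed 21.2 to 36.1 CPM to 5.01 to 8.65 CPM, and the median mitochondrial share was 3.70 to 4.58% at 1 week and 1.92 to 2.20% at 3 weeks. All of these are measured beside the members' changes, and their part in them beyond the step without dividing cells was not tested.

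Accepted spleen at 1 week was set against naive spleen. Here 8 members were tested, 5 were called higher and 1 lower, where 57.6% of 10160 genes were called, 21.1% higher and 36.5% lower. Irf4 was higher by 3.03 ± 0.34 (8.14-fold, edgeR adjusted p = 8.74e-07), Maf by 2.73 ± 0.25 (6.65-fold, edgeR adjusted p = 6.03e-08), Nr4a1 by 1.88 ± 0.30 and Nr4a2 by 1.81 ± 0.26. Naive spleen held few UMIs of these genes over its 5 libraries, from 20 for Irf4 to 78 for Nr4a2. Batf was higher by 0.46 ± 0.16 (edgeR adjusted p = 0.0167), a call that was lost without library 7S3 (0.20, edgeR adjusted p = 0.235, with 0.000264 to 0.235 over its alternatives). Tox was lower by -0.44 ± 0.09 (edgeR adjusted p = 0.000320), a call lost with the intron-length offset (-0.07, edgeR adjusted p = 0.516), while Nr4a3 (-0.21 ± 0.36) and Nfatc1 (-0.15 ± 0.08) did not pass the test. The summed B cell markers were 415 to 884 CPM in 1-week accepted spleen and 30.0 to 59.5 CPM in naive spleen, and without cells that had a UMI of Cd4, Cd79a, Cd79b, Lyz2, C1qa or Csf1r Irf4 was 2.31 and Maf 1.99 higher, both still called. With cells thinned to 1000 UMIs a Maf UMI was found in 0.974% of 1-week and 0.267% of naive cells and an Irf4 UMI in 0.650% and 0.0222%, all below the 1.05% and 5.07% in B cell-marked cells of naive spleen. Without cells with markers of other cells the shares were 0.541% and 0.263% for Maf and 0.244% and 0.0263% for Irf4. The 11 stress and immediate early genes summed to 725 to 1635 CPM in 1-week accepted against 482 to 627 CPM in naive spleen, the 5 genes of dividing cells to 257 to 655 against 16.9 to 31.0 CPM and the 3 CD4 and regulatory T cell markers to 14.7 to 21.5 against 2.89 to 5.75 CPM, and their part in the NR4A, Irf4 and Maf differences was not tested beyond these steps.

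The comparison of rejecting with accepted kidney at 1 week asked how the list differed between the 2 outcomes. Of 9 members, 4 were called higher in rejecting kidney (Tox, Tox2, Nfatc1 and Irf4), 2 lower (Nr4a1 and Batf) and 3 neither, where 58.1% of 12222 genes were called, 47.7% higher and 10.4% lower. Tox was higher by 2.69 ± 0.17 (6.47-fold, edgeR adjusted p = 1.01e-05), Tox2 by 1.03 ± 0.21 (edgeR adjusted p = 0.00285), Nfatc1 by 0.96 ± 0.17 (edgeR adjusted p = 0.00144) and Irf4 by 0.57 ± 0.21 (edgeR adjusted p = 0.0423). Nr4a1 was lower by -1.96 ± 0.21 (edgeR adjusted p = 9.80e-05) and Batf by -0.67 ± 0.17 (edgeR adjusted p = 0.0102), while Nr4a2 (0.20 ± 0.33), Nr4a3 (0.22 ± 0.42) and Maf (-0.28 ± 0.58) overlapped between the groups. The 11 stress and immediate early genes, which respond quickly to stimuli as Nr4a1 does, summed to 452 to 962 CPM in rejecting against 1004 to 1369 CPM in accepted kidney, and the median mitochondrial share of a cell was 1.30 to 1.31% against 3.70 to 4.58%. The 3 CD4 and regulatory T cell markers summed to 8.21 to 8.44 CPM in rejecting kidney, with Cd4 at 0, against 21.2 to 36.1 CPM in accepted kidney. The part of all of these in the Nr4a1 and Batf differences was not tested. With 2 rejecting libraries, single libraries decided several values. The Irf4 call was lost without library 7K1, 7K2, 7K3 or R7K2 (0.45 to 0.66). Without R7K3, Nr4a2 (0.72) and Nr4a3 (0.89) were called higher, and without R7K2, Nr4a2 (-0.60), Nr4a3 (-0.98) and Maf (-1.98) were called lower. A fit without R7K2 or R7K3 has 1 rejecting library, whose spread is assumed to be that of the accepted libraries, so the calls have no replicate behind them in rejection. The share of CD8 cells with a Mki67 or Top2a UMI was 26.3% in R7K2 and 71.5% in R7K3, against 30.6 to 49.8% in 1-week accepted kidney. TMM scaling gave 2.03 for Tox but 0.36 for Tox2 and 0.29 for Nfatc1, neither of them called, and -0.09 for Irf4 (edgeR adjusted p = 0.706, with 0.0198 to 0.799 over its alternatives), and 1 member was called higher with DESeq2.

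Long genes as a whole were higher in the rejecting matrices, so the recipient spleens of the same groups served as control. When the genes tested were ranked by total intron length in 10 groups, the median log2 difference of rejecting from accepted kidney went from -0.256 in the shortest group to 2.20 in the longest. The same comparison between the spleens went from -0.435 to 1.86. Tox, with 297596 bases of intron, and Tox2, with 117645, fell in the longest group, Nfatc1, with 99398, in the group next to it, and the other 6 members had 12848 to 35308 bases. Between rejecting kidney and rejecting spleen the shortest and longest groups had medians of 0.192 and 0.0749. The trend with intron length was therefore present in both rejecting tissues and nearly absent when one was set against the other. Whether reads inside introns were counted, and with which version of Cell Ranger, is not given in the sources used here.

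**Figure D2:**
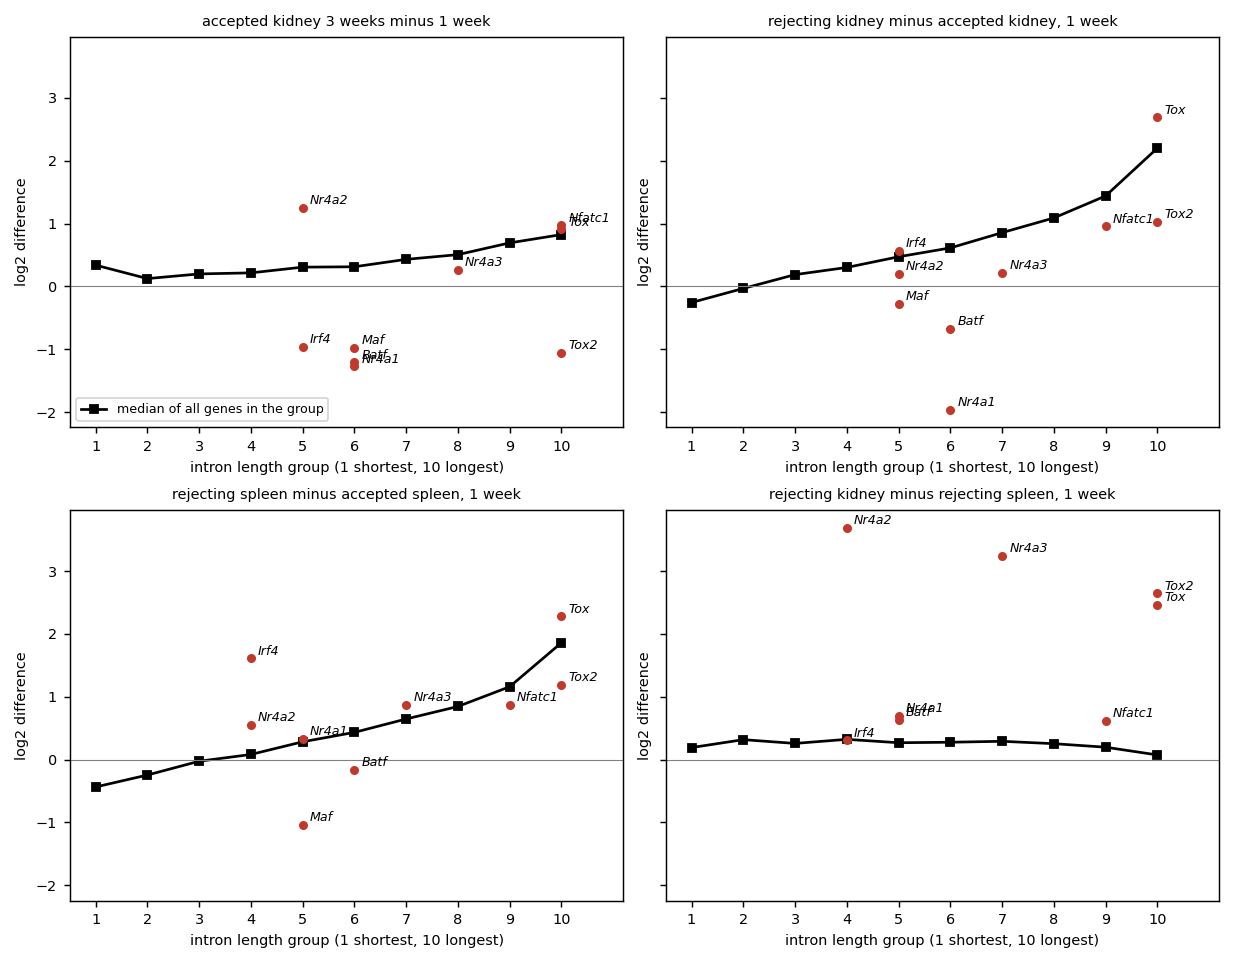
The median log2 difference of all genes tested (vertical axis) in 10 groups of genes by total intron length, shortest to longest (horizontal axis), in 4 comparisons, with the tested members drawn at their own values in their group (Maf was not tested in the last comparison). The line rises from -0.256 to 2.20 for rejecting against accepted kidney and from -0.435 to 1.86 for the spleens, and stays between 0.0749 and 0.323 for rejecting kidney against rejecting spleen.

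Tox differed between the rejecting and accepted spleens about as it did between the kidneys. It was higher in rejecting spleen by 2.28 ± 0.15 (4.85-fold, edgeR adjusted p = 4.89e-08), where 51.2% of genes were called and 39.8% were called higher. The difference of the graft-over-spleen differences was 0.42 ± 0.22 (95% interval -0.02 to 0.86, edgeR adjusted p = 0.468). In that test 0.546% of genes were called and none of the 9 members by edgeR, with 2 members at an unadjusted p under 0.05 and 1 called by DESeq2. Nr4a1 had the largest value, -2.28 ± 0.56 (95% interval -3.37 to -1.20, edgeR adjusted p = 0.0788), followed by Irf4 with -1.03 ± 0.42 (edgeR adjusted p = 0.321). DESeq2 called Nr4a1 (-2.38, adjusted p = 0.00647, with 0.00647 to 0.338 over its alternatives). No other member had an edgeR adjusted p under 0.321 there, which does not show that they did not differ. The 95% interval for Nr4a3 was -2.62 to 1.28 and that for Maf -1.04 to 2.56.

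Taking the median of each intron group out of every library as an offset changed the long genes most. Tox in rejecting over accepted kidney was then 0.57 (edgeR adjusted p = 0.0210, with 5.21e-25 to 0.0210 over its alternatives), and in rejecting over accepted spleen 0.44 (edgeR adjusted p = 0.0173, with 2.71e-38 to 0.0173). Tox2 in the kidneys turned to -1.10 (edgeR adjusted p = 0.0109, with 8.45e-05 to 0.303) and Nfatc1 to -0.42 (edgeR adjusted p = 0.0395, with 8.08e-09 to 0.176). For 3 against 1 week in accepted kidney, where the medians went from 0.339 in the shortest to 0.825 in the longest group, Tox became 0.12 (edgeR adjusted p = 0.294, with 6.51e-09 to 0.294) and Nfatc1 0.19 (edgeR adjusted p = 0.0494, with 1.88e-11 to 0.0494). Nr4a2 moved less, down to 0.96. The difference of Tox between graft and its own spleen remained with the offset, at 2.11 in accepted mice at 1 week, 2.12 at 3 weeks and 2.37 in rejection. At 3 weeks this was lower than without the offset, and about the 1-week value.

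**Figure D3:**
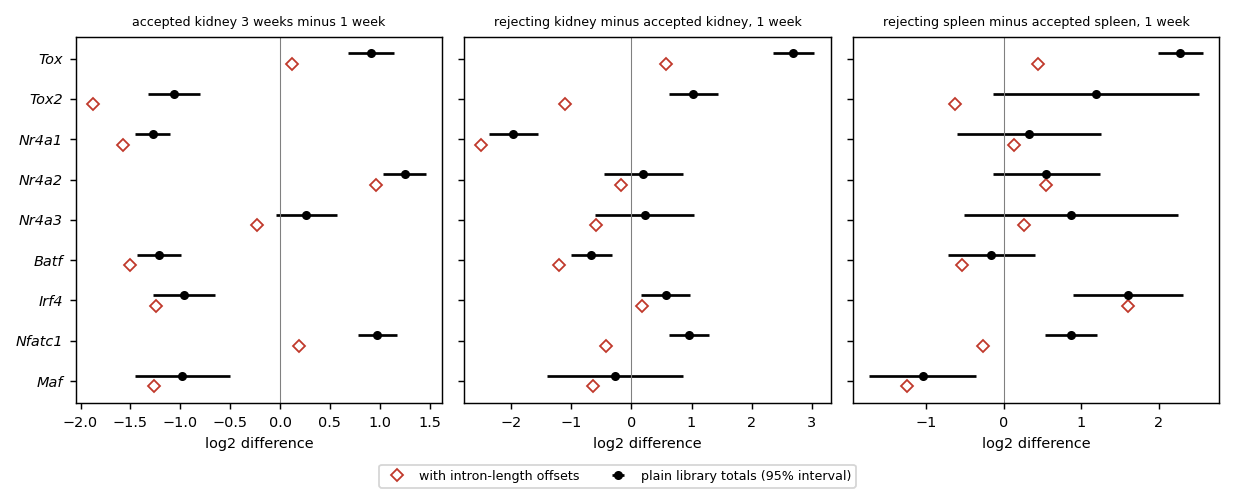
The log2 difference of each member (horizontal axis) with its 95% interval, and the same difference after the intron-length offset as a diamond, in 3 comparisons. For rejecting over accepted kidney Tox moves from 2.69 to 0.57 and Tox2 from 1.03 to -1.10. For 3 weeks over 1 week Tox moves from 0.91 to 0.12, while Nr4a2 moves less, down to 0.96.

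Between the spleens 2 further members were called higher in rejection, Irf4 by 1.61 ± 0.36 (edgeR adjusted p = 0.00214) and Nfatc1 by 0.87 ± 0.17 (edgeR adjusted p = 0.000827), and Maf was called lower by -1.04 ± 0.35 (edgeR adjusted p = 0.0235). The libraries overlapped for Irf4. Without library R7S1 neither Irf4 (1.24, edgeR adjusted p = 0.0650, with 1.03e-05 to 0.0650) nor Maf (-0.84, edgeR adjusted p = 0.164, with 2.05e-06 to 0.973) was called, and with the intron offset Nfatc1 was -0.26. The Maf call was also lost without dividing cells (-0.45), without cells with markers of other cells (-0.03) and in 1 fit over all 9 groups (-1.05). The summed B cell markers were 91.3 to 366 CPM in rejecting and 415 to 884 CPM in accepted spleen, the stress and immediate early genes 310 to 463 and 725 to 1635 CPM, and the median mitochondrial share 1.75 to 1.80% and 5.43 to 6.15%. Tox2 (1.19 ± 0.68), Nr4a1 (0.33 ± 0.47), Nr4a2 (0.55 ± 0.35), Nr4a3 (0.87 ± 0.70) and Batf (-0.16 ± 0.29) did not pass the test.

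The split of CD8 cells by Pdcd1 asked which members were higher in cells that expressed the PD-1 transcript. It could be made in the 4 matrices with many Pdcd1-positive cells, with each library as its own block. In the other 5 matrices 0.178% to 2.30% of cells were positive. In 1-week accepted kidney 5 members were called higher in Pdcd1-positive cells and 1 lower, where 17.5% of genes were called, 12.1% higher and 5.40% lower. In 3-week accepted kidney 5 were called higher and 1 lower, where 9.18% of genes were called, 5.07% higher and 4.12% lower, and in the libraries labelled 24-week spleen 4 were called higher and none lower, where 6.69% were called, 4.47% higher and 2.23% lower. In rejecting kidney 1 member was called higher, where 1.74% of genes were called and 1.03% higher. DESeq2 called 3, 4, 3 and 0 members in the same order. With each cell thinned to 1000 UMIs the members called higher were 2 at 1 week, 3 at 3 weeks and 0 in rejecting kidney, and 0, 2, 1 and 0 in the 4 matrices without the library block. Positive cells were deeper, with a median of 2661 to 4366 against 1821 to 3182 UMIs at 1 week. Thinning ended the calls of Tox, Tox2 and Nr4a1 at 1 week (0.20, 0.18 and 0.22), of Nr4a1 and Nfatc1 at 3 weeks (0.19 and 0.04), of Tox in the libraries labelled 24-week spleen (0.17) and of Nr4a2 in rejecting kidney (0.41). Without the block Nr4a2 and Nr4a3 kept their call at 3 weeks and Nr4a3 in the libraries labelled 24-week spleen, and no other higher call held.

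Nr4a2 was called higher in the Pdcd1-positive cells of all 4 matrices, and Nr4a1 and Nr4a3 in 3 of them. Nr4a2 in 1-week accepted kidney was at 300, 290 and 210 CPM in positive and 186, 144 and 147 CPM in negative cells, a difference of 0.72 ± 0.05 (edgeR adjusted p = 1.05e-13). In 3-week accepted kidney it was at 547, 556, 588, 656 and 667 CPM in positive and 319, 402, 398, 375 and 489 CPM in negative cells, a difference of 0.61 ± 0.03 (edgeR adjusted p = 8.42e-26), and in rejecting kidney at 424 and 157 against 263 and 110 CPM, a difference of 0.63 ± 0.13 (edgeR adjusted p = 0.000634). The libraries labelled 24-week spleen had 1087, 683 and 703 against 646, 300 and 373 CPM (0.93 ± 0.05, edgeR adjusted p = 1.42e-44). Every library had more Nr4a2 in its Pdcd1-positive cells, although the level of the rejecting libraries differed more from each other than positive from negative cells did. Nr4a3 was higher in positive cells by 0.74 ± 0.09, 0.80 ± 0.06 and 0.95 ± 0.07 in the same order without rejecting kidney, where it was 0.76 ± 0.24 (edgeR adjusted p = 0.0708), with 126 against 60.8 CPM in library R7K2 and 28.0 CPM in both classes of R7K3. Nr4a1 was higher by 0.41 ± 0.06, 0.34 ± 0.08 and 0.61 ± 0.09, and in rejecting kidney by 0.46 ± 0.36 (edgeR adjusted p = 0.702).

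Tox was also called higher in Pdcd1-positive cells, in 3 of the 4 matrices. It stood at 212, 189 and 162 CPM in positive and 186, 167 and 130 CPM in negative cells of 1-week accepted kidney (0.23 ± 0.05, edgeR adjusted p = 0.000520) and at 444, 330, 330, 343 and 347 against 340, 259, 241, 278 and 291 CPM in 3-week accepted kidney (0.35 ± 0.03, edgeR adjusted p = 1.30e-15). In the libraries labelled 24-week spleen it was at 339, 292 and 271 against 261, 230 and 234 CPM (0.31 ± 0.06, edgeR adjusted p = 0.000110). In rejecting kidney it was at 1178 and 1182 against 1054 and 1027 CPM (0.18 ± 0.07, edgeR adjusted p = 0.266). Each library was higher in its positive cells, but positive and negative cells of different libraries overlapped in both accepted kidney groups. Tox2 passed the test in 1-week accepted kidney, at 17.1, 19.8 and 23.0 against 11.5, 12.5 and 16.7 CPM (0.54 ± 0.11, edgeR adjusted p = 0.000309), and the difference of its split between 3 and 1 week was -0.28 ± 0.20 (edgeR adjusted p = 0.527).

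Among the remaining members, Maf and Irf4 were each called lower in the positive cells of 1 matrix. Maf was lower in Pdcd1-positive cells of 3-week accepted kidney in 5 of 5 libraries, at 24.8, 21.6, 12.4, 11.4 and 13.8 against 39.4, 30.4, 18.5, 20.8 and 17.1 CPM (-0.59 ± 0.10, edgeR adjusted p = 2.79e-06). That call was lost without the library block. At 1 week Maf was at 55.9, 32.2 and 33.0 against 58.0, 24.0 and 30.7 CPM (0.12 ± 0.08, edgeR adjusted p = 0.392). The difference between these splits was -0.70 ± 0.13 (edgeR adjusted p = 0.000184), where 5.89% of genes were called, and Maf was the member called of 9. Without dividing cells it was -0.50 (edgeR adjusted p = 0.107, with 6.21e-06 to 0.987 over its alternatives), with thinned cells -0.40 and without the library block -0.66, neither of them called, and DESeq2 gave no adjusted p. Irf4 was lower in positive cells of 1-week accepted kidney in 3 of 3 libraries, at 19.1, 13.8 and 19.9 against 23.6, 21.1 and 25.8 CPM (-0.41 ± 0.10, edgeR adjusted p = 0.00250), a call lost without library 7K2 (-0.35, edgeR adjusted p = 0.0508, with 8.16e-05 to 0.625), and also with DESeq2 (-0.46), without dividing cells (-0.42), with thinned cells (-0.43) and without the library block (-0.42). Dividing cells were 38.1 to 57.2% of positive and 24.3 to 41.7% of negative cells in that matrix. Nfatc1 was higher in positive cells of 3-week accepted kidney by 0.14 ± 0.04 (edgeR adjusted p = 0.0262), a call lost without TK1, TK2 or TK3 (0.08 to 0.14). Batf did not pass the test in any of the 4 matrices, with differences of 0.07 to 0.15. The splits of rejecting and 1-week accepted kidney differed for none of the 9 members by edgeR, where 0.215% of genes were called, with 1 member (Tox2, -0.66 ± 0.28) at an unadjusted p under 0.05 and none called by DESeq2.

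**Figure D4:**
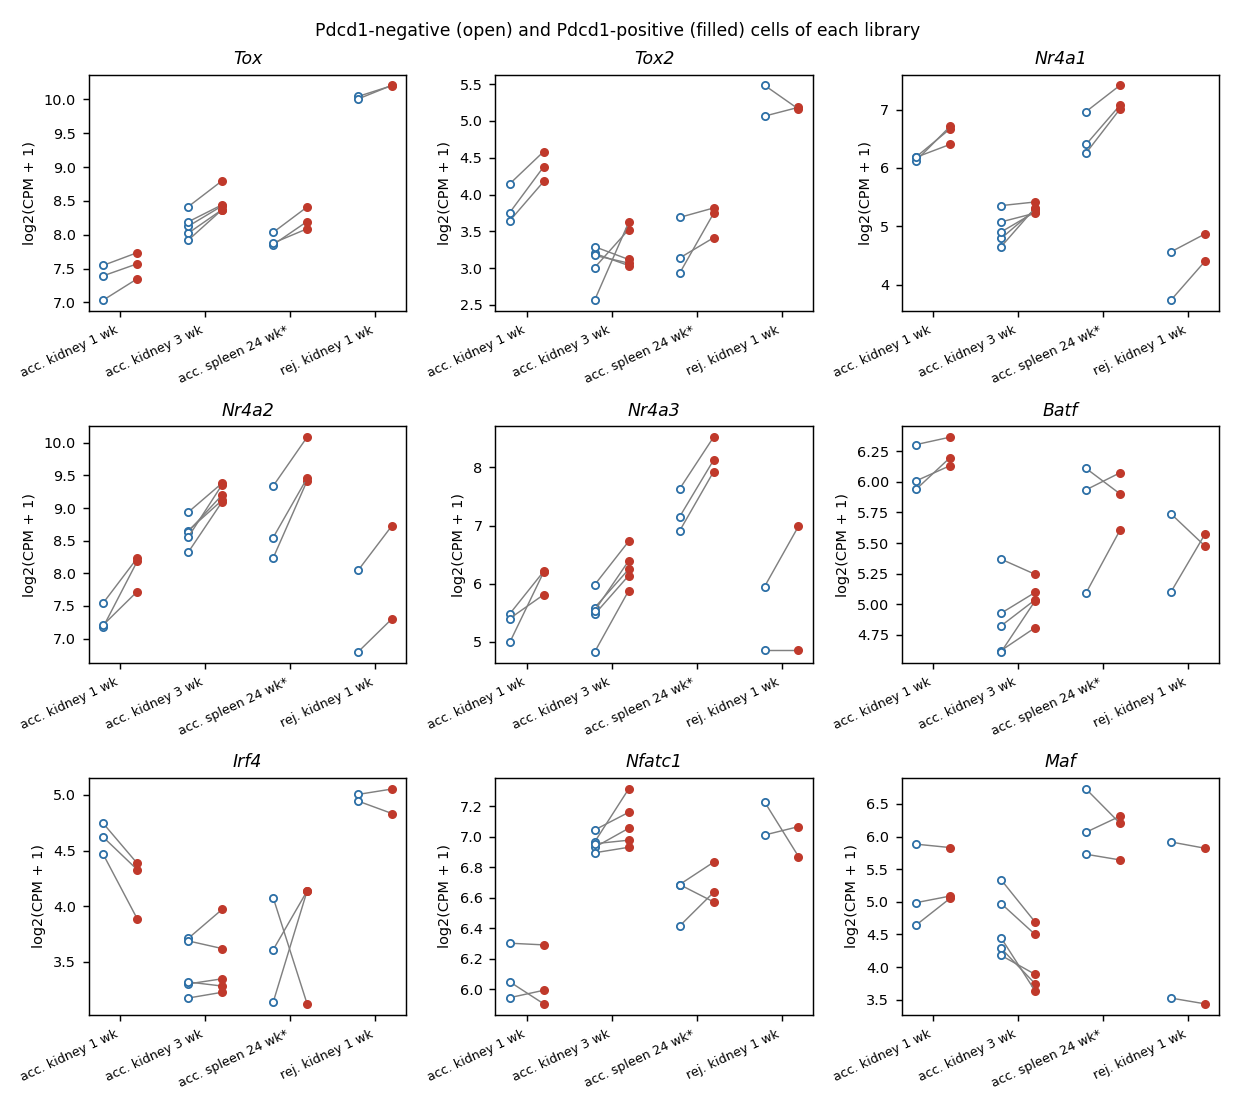
Level of the 9 genes as log2(CPM + 1) (vertical axis) in the Pdcd1-negative (open points) and Pdcd1-positive (filled points) CD8 cells of each library, for the 4 matrices with many positive cells. Nr4a2 and Tox are higher in the positive cells of each library, while Maf is lower in positive cells of all 5 libraries of 3-week accepted kidney. The fitted log2 differences of the 4 matrices were 0.61 to 0.93 for Nr4a2 and 0.18 to 0.35 for Tox, and single libraries varied more widely.

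The split is coarse at this depth, since a cell that expresses Pdcd1 can lack a UMI of it by chance. Cells were therefore also thinned to 1000 UMIs each and ordered by 0, 1, 2 or at least 3 Pdcd1 UMIs. In 3-week accepted kidney Nr4a2 was at 455, 591, 667 and 966 CPM on average over libraries and Nr4a3 at 57.0, 73.4, 88.9 and 126 CPM, rising at each step. The libraries labelled 24-week spleen had 587, 848, 994 and 1311 CPM of Nr4a2, again rising at each step. Nr4a2 did not rise at the last step in 1-week accepted kidney (181, 259, 374 and 349 CPM) or in rejecting kidney (225, 266, 428 and 258 CPM). Nr4a3 fell at the last step in 1-week accepted kidney, from 99.5 to 73.4 CPM, and went from 388 to 380 CPM in the libraries labelled 24-week spleen. The last class thus broke the rise in several matrices. Tox stood at 313, 359, 377 and 353 CPM in 3-week accepted kidney and 282, 320, 331 and 271 CPM in the libraries labelled 24-week spleen, lower at the last step in both, but rose at each step in 1-week accepted kidney (175, 192, 224 and 318 CPM). In rejecting kidney Tox was at 1159, 1229, 1062 and 1786 CPM, with no steady course. The mean of Nr4a3 rose at each step there, at 50.3, 68.2, 94.5 and 113 CPM. In its last class, however, 1 library had 0 and the other 226 CPM. The last class was thin, with as few as 12 cells in a library at 1 week, 44 at 3 weeks, 26 in the libraries labelled 24-week spleen and 23 in rejecting kidney, so these steps are given with no test.

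**Figure D5:**
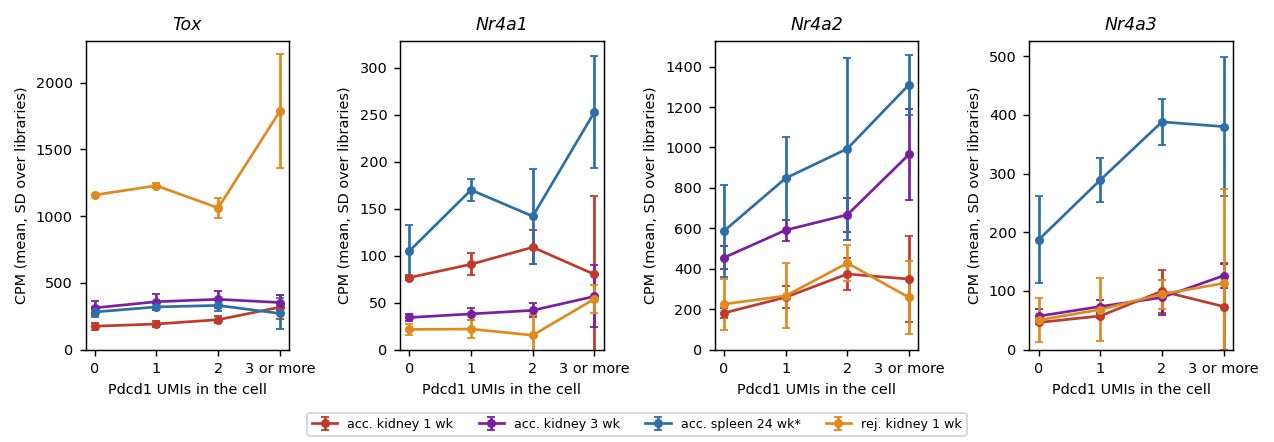
Mean CPM over libraries (vertical axis, with the SD over libraries) of Tox, Nr4a1, Nr4a2 and Nr4a3 in CD8 cells thinned to 1000 UMIs, by the number of Pdcd1 UMIs left in the cell (horizontal axis), in 4 matrices. The axis starts at 0, so a bar that would pass below it is cut there, and the asterisk marks a 24-week label that goes against its markers. Nr4a2 rises from 455 to 966 CPM in 3-week accepted kidney, while Tox goes from 313 to 353 CPM there and stays above 1000 CPM in rejecting kidney.

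The differences of Tox and Nr4a2 over time, and of Tox between outcomes, were present in both classes of cells. Maf over time, and Irf4 and Batf between outcomes, were called in positive cells only. Their means in negative cells differed in the same direction. These were 25.2 against 37.6 CPM for Maf at 3 against 1 week. In rejecting against accepted kidney they were 30.5 against 23.5 CPM for Irf4 and 42.8 against 67.3 CPM for Batf. The splits differed between these kidneys for no member by edgeR, so the calls do not show a difference confined to positive cells there. Over time the split differed for Maf, with the limits given above. Tox at 3 against 1 week was 359 against 187 CPM in Pdcd1-positive cells (0.94 ± 0.11) and 282 against 161 CPM in Pdcd1-negative cells (0.81 ± 0.13), where 74.5% and 70.4% of genes were called. In positive cells 52.5% of genes and 3 members were called higher and 22.0% and 5 members lower, and in negative cells 51.3% and 3 members higher and 19.1% and 4 members lower. Nr4a2 was 603 against 267 CPM (1.18 ± 0.12) and 397 against 159 CPM (1.32 ± 0.13). In rejecting against accepted kidney, where 56.5% and 50.4% of genes were called, Tox was 1180 against 187 CPM in positive (2.66 ± 0.17) and 1041 against 161 CPM in negative cells (2.69 ± 0.19). There 4 members were called higher and 2 lower in positive cells (45.9% and 10.6% of genes), and 3 higher and 1 lower in negative cells (40.8% and 9.61%). In both classes the Tox difference between matrices carried the intron-length trend, with 0.14 and 0.02 under the offset for 3 against 1 week and 0.58 and 0.61 for rejecting against accepted kidney. The split of Tox by Pdcd1 within a matrix was 0.23, 0.34 and 0.26 under the same offset in 1-week, 3-week and rejecting kidney, so which of the differences was larger depended on the offset for accepted kidney.

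Shares of cells with a UMI were read at 1000 UMIs per cell, which left out 28 cells of 1-week accepted spleen, 4 of 3-week accepted spleen and 71 of the libraries labelled 24-week spleen. Intervals are exact binomial 95% intervals and cover counting error only. Tox was found in 15.3% of CD8 cells of 1-week accepted kidney (14.7 to 15.9%), 26.2% at 3 weeks (25.7 to 26.8%), 55.2% in rejecting kidney (52.8 to 57.6%), 15.6% in rejecting spleen (13 to 18.4%) and 4.09%, 6.83% and 5.56% in 1-week, 3-week and naive spleen. Nr4a2 was found in 16.0%, 31.2% and 19.4% of cells in 1-week, 3-week and rejecting kidney and in 0.356 to 1.34% of cells in 1- and 3-week accepted, rejecting and naive spleen, but in 39.0% of cells of the libraries labelled 24-week spleen. In Pdcd1-positive and Pdcd1-negative cells the Tox share was 16.4% and 14.3% at 1 week, 28.4% and 22.8% at 3 weeks and 58.4% and 49.6% in rejecting kidney, and the Nr4a2 share 19.6% and 12.6%, 35.1% and 25.2%, and 21.1% and 16.5%. Tox RNA was thus found in a good part of the cells that had no Pdcd1 UMI.

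Other members were found in fewer cells. Nr4a1 was found in 7.41%, 3.33% and 2.02% of cells in 1-week, 3-week and rejecting kidney, Nr4a3 in 4.74%, 5.58% and 5.51%, Nfatc1 in 6.59%, 12.2% and 11.9%, Tox2 in 1.53%, 0.833% and 3.38%, and Irf4 in 1.92%, 1.02% and 2.85%. Batf was found in 7.39% and 3.15% of cells at 1 and 3 weeks and in 2.40% of naive cells. No Tox2 UMI was found in 4500 naive CD8 cells, which allows a share of up to 0.0819%. For background, 6400 cells of the rejecting kidney with myeloid markers (median 2430 UMIs) had a Tox UMI in 0.609% of cells, Tox2 in 0.109%, Nr4a1 in 4.66%, Nr4a2 in 4.72%, Nr4a3 in 2.72%, Batf in 2.34%, Irf4 in 0.172%, Nfatc1 in 5.47% and Maf in 19.6%, and 28048 naive spleen cells with B cell markers (median 2701 UMIs) in 0.0535%, 0.00357%, 1.06%, 0.0998%, 0.0963%, 1.11%, 5.07%, 8.86% and 1.05%. Myeloid cells are known to express Maf, Nr4a and Nfatc1 genes, and B cells Irf4 and Nfatc1. Maf in 1-week, 3-week, rejecting and naive spleen (0.974%, 1.02%, 0.826% and 0.267%) lay below its share in B cell-marked cells. Nr4a1 in 3-week and rejecting kidney also lay below its share in myeloid-marked cells, Irf4 in 1-week, 3-week and rejecting kidney and Nfatc1 in 1-week kidney below theirs in B cell-marked cells, and Maf in every matrix below its share in myeloid-marked cells, so no expression is read from those shares alone. Across 36 pairs of member and matrix, the thinned share was higher in Pdcd1-positive cells of every library in 16, of which 6 were in 1-week and 3 in 3-week accepted kidney, 4 in the libraries labelled 24-week spleen and 3 in rejecting kidney. Without thinning it was so in 29 pairs, and the median UMI count of positive cells was above that of negative cells in these matrices. The same count was not made over all genes, and with so few libraries some pairs come out this way by chance. It is therefore not read as a result about the members.

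Across the 32 libraries, which fall into 9 groups and share depth and dissociation within each, the likeness of log2(CPM + 1) profiles is given as Pearson's r with no test. The profiles are without the intron-length offset, so each r includes any trend with intron length. Tox, Tox2 and Nfatc1 are the members with the longest introns. Among the members the closest pairs were Nr4a2 and Nr4a3 (r = 0.94), Nr4a1 and Nr4a2 (0.90), Nr4a1 and Nr4a3 (0.90), Tox and Nfatc1 (0.89) and Tox and Tox2 (0.88). The least alike were Batf and Nfatc1 (0.35). Of 5411 genes with enough counts, the profile most like Tox was that of Rab8b (0.98), a vesicle transport GTPase, followed by Cdc14a (0.97) and Vps54 (0.97), which were not on any list. The profiles most like Nr4a2 were those of Fasl, which encodes the death ligand of cytotoxic T cells, Rgs1, a brake on G protein signals, and Bhlhe40 (all 0.98). Those most like Nr4a3 were Rgs1 (0.95), Rgs2 (0.94) and Crem (0.94), those most like Nr4a1 were Ifrd1 and Srgn (0.92), and that most like Maf was Nr4a1 (0.87). Tox2 was most like Eea1, Itgb1 and the inhibitory receptor Ctla4 (all 0.96), Batf most like Sub1 (0.87), Irf4 most like Serinc3 (0.91) and Nfatc1 most like the kinase Cdk6 (0.95).

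Other genes of the pathway were read from lists, and for graft against accepted spleen the shares of all genes beside their counts are 30.0% higher and 19.4% lower at 1 week and 48.6% and 16.8% at 3 weeks. List genes are given without the intron-length offset, so their values include any trend with intron length. The median of the longest intron group was 2.20 for rejecting against accepted kidney and 0.825 for 3 against 1 week. Of 6 other NFAT family and NFAT feedback genes, 4 were called higher and none lower at 3 against 1 week, beside 53.6% and 21.2% of all genes, from Nfat5 (1.46 ± 0.10) to Egr2 (-0.34 ± 0.35, edgeR adjusted p = 0.376). In graft against accepted spleen 1 was called higher and 2 lower at 1 week and 2 and 2 at 3 weeks, with Nfat5 highest at both (0.79 ± 0.11 and 1.51 ± 0.08) and Egr3, an NFAT-induced early growth response gene, lowest (-1.02 ± 0.38 and -1.10 ± 0.25). In rejecting against accepted kidney 4 were called higher and none lower, beside 47.7% and 10.4% of all genes. In the spleens 2 of the 4 tested were called higher, beside 39.8% of all genes. In the kidneys Rcan1, a calcineurin inhibitor and NFAT target, was highest (2.16 ± 0.29), and none of the 6 was called in the test of the graft-over-spleen differences by edgeR. None was called higher in Pdcd1-positive cells of any matrix by edgeR, where Rcan1 was at 0.57 ± 0.29 in 1-week and 0.44 ± 0.20 in 3-week accepted kidney.

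Among the 11 other bZIP and IRF partners, 8 were tested in most comparisons. At 3 against 1 week 4 were called higher and 1 lower, beside 53.6% and 21.2% of all genes, from the AP-1 subunit Jun (2.07 ± 0.22) to Bach2 (-0.68 ± 0.20), a repressor kept by memory and naive T cells. In graft against accepted spleen 2 were called higher and 4 lower at 1 week and 7 and 1 at 3 weeks, from Fosl2 (3.15 ± 0.14 and 3.50 ± 0.18) to Bach2 (-2.25 ± 0.20 and -3.73 ± 0.11). In rejecting against accepted kidney all 11 were tested, with 4 higher and 4 lower beside 47.7% and 10.4% of all genes, from Batf2 (3.36 ± 0.71) to Junb (-2.23 ± 0.30). In the Pdcd1 split Fosl2 was highest in 1-week accepted kidney (0.64 ± 0.06), 3-week accepted kidney (0.69 ± 0.04) and the libraries labelled 24-week spleen (0.93 ± 0.06), near the values of Nr4a2, while Jun was lowest in the latter 2 (-0.28 ± 0.02 and -0.87 ± 0.05).

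Of 10 other transcription factors of exhausted and effector CD8+ T cells, 7 were called higher and 2 lower at 3 against 1 week, beside 53.6% and 21.2% of all genes, from Id2 (1.60 ± 0.11), which marks effector and resident cells, to Tcf7 (-2.92 ± 0.14), which encodes TCF1 of stem-like cells. In graft against accepted spleen 5 were called higher and 3 lower at 1 week, from Prdm1 (3.15 ± 0.16), which encodes BLIMP1, to Eomes (-2.02 ± 0.16), and 7 and 3 at 3 weeks, from Bhlhe40 (4.19 ± 0.13) to Tcf7 (-5.19 ± 0.10). In rejecting against accepted kidney 7 were called higher and 2 lower, beside 47.7% and 10.4% of all genes, from Zeb2 (1.86 ± 0.25) to Id3 (-1.68 ± 0.26). The intron-length offset is not in these values. In the test of the difference between the graft-over-spleen differences Ikzf2, which encodes Helios, was higher (2.34 ± 0.27, edgeR adjusted p = 0.000637) and Tcf7 lower (-1.35 ± 0.29, edgeR adjusted p = 0.0470) in rejection. In the Pdcd1 split Id3 was lowest in 1-week (-1.36 ± 0.10) and 3-week accepted kidney (-0.67 ± 0.22).

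Of 8 inhibitory receptors, all were called higher in accepted kidney than spleen at both times, from Pdcd1 (5.10 ± 0.22 and 8.68 ± 0.23) to Cd160 (1.03 ± 0.17 and 1.94 ± 0.11). Pdcd1 had 15 UMIs over the 5 libraries of 3-week accepted spleen and passed the filter on low counts through the kidney libraries. Its 3-week call and size therefore rest on a spleen level near the floor. At 3 against 1 week 6 were called higher and 1 lower, from Cd244a (2.66 ± 0.14) to Ctla4 (-0.88 ± 0.07), beside 53.6% and 21.2% of all genes. In rejecting against accepted kidney 6 were called higher and 1 lower, beside 47.7% and 10.4% of all genes, from Entpd1 (3.08 ± 0.22), which encodes CD39, to Cd160 (-1.13 ± 0.24). Here too the values are without the intron-length offset. Besides Pdcd1, which defined the split, 7 were tested in the Pdcd1 split. In 1-week accepted kidney 4 were called higher, with Havcr2 highest (0.57 ± 0.11), beside 12.1% of all genes higher and 5.40% lower. In 3-week accepted kidney 4 were called higher and 1 lower, beside 5.07% and 4.12% of all genes, from Ctla4 (0.48 ± 0.05) to Cd160 (-0.31 ± 0.05). Tox4, the other TOX family gene with enough counts, differed by 0.56 ± 0.09 at 3 against 1 week and by 0.02 ± 0.17 between rejecting and accepted kidney (edgeR adjusted p = 0.943).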

How the data were processed

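CD8+ T cells from 9 matrices (accepted kidney and spleen at 1, 3 and 24 weeks, rejecting kidney and spleen at 1 week, naive spleen) were analysed. The authors filtered cells by UMIs, genes and mitochondrial share, named CD8+ T cells from Seurat clusters and deposited raw UMI counts per cell, with no normalization. The submitters' processing notes name Cell Ranger and mm10, with no version. Here, only cells in which a UMI of Cd8a or of Cd8b1 was counted were kept, their counts were added up by library tag, and each sum was scaled to its own total. Groups were compared with edgeR 4.0.16 (quasi-likelihood, R 4.3.3) over all genes after its filter on low counts, with Benjamini-Hochberg adjustment. Pdcd1-positive and Pdcd1-negative sums of a library shared a block. The tag of a library, not a label, gives the block. Kidney and spleen tags also share numbers. At 1 week, deviations from the group means correlated at 0.13 to 0.27 between libraries of the same number and at -0.19 to 0.08 between others, so that the numbers were taken to pair them there, and a fit with this number as a block was added after seeing the data. Doublets were not called here, and cells with a marker UMI of other types were left out in an alternative.

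Alternatives were TMM scaling, DESeq2 1.42.0, no filter, an offset per intron-length group (10 groups, GENCODE M21 on GRCm38, in which 97.5% of symbols matched), leaving out dividing cells, cells with markers of other cells or each library, all cells of the matrix, 1 fit over all groups, at least 2 Pdcd1 UMIs, cells thinned to 1000 UMIs and no library block. Shares of cells were read after thinning to 1000 UMIs, with 500 and no thinning as alternatives, in Python 3.11.15 with scipy 1.17.1. The scripts were tested on simulated data. Promoters are from RefSeq GRCm38.p6. Named genes outside the list were the highest and lowest of each gene list in a comparison and the 3 genes most like a member among those with a mean of at least 20 CPM over the libraries. The members and lists were chosen with earlier results of these data known, so no list is independent evidence.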

Additional observations from a re-analysis of the deposited data

Results flagged for a closer look

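In 3-week accepted spleen, Batf stood at 24.8 CPM in library TS1, above 18.8 to 20.4 CPM in the other 4, and the gap to the nearest was 0.729 of the range, over Dixon's critical value of 0.71 for 5 libraries. Maf stood at 17.3 CPM in library TS4 of the same group, with a gap of 0.804 of the range. These were 2 of 26 groups tested, and chance alone marks about 1 in 20. The lower Maf in Pdcd1-positive cells differed between 3- and 1-week accepted kidney by -0.70 on the log2 scale (SE 0.13, edgeR adjusted p = 0.000184), with every one of the 5 libraries lower at 3 weeks and 1 of 3 lower at 1 week. The dividing cells also differed between these matrices, at 30.6 to 49.8% of CD8 cells at 1 week and 10.7 to 15.6% at 3 weeks, and without them the difference was -0.50 (edgeR adjusted p = 0.107, with 6.21e-06 to 0.987 over its alternatives). It was -0.40 with cells thinned to equal depth and -0.66 without the library block, and not called in either.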

How the results depend on the processing

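The offset for intron length reversed 16 values of the members, and the fits that each left out 1 library reversed 19 between them. With the offset Nr4a3 at 3 against 1 week was -0.23, Batf in the libraries labelled 24-week kidney against 3-week kidney 0.07, Nr4a3 and Nfatc1 in 1-week against naive spleen 0.03 and 0.22, Tox2, Nr4a2, Nr4a3 and Nfatc1 in rejecting against accepted kidney -1.10, -0.17, -0.58 and -0.42, Tox2 and Nfatc1 in the spleens -0.63 and -0.26, Irf4 in rejecting kidney against spleen -0.02, the graft-over-spleen difference of Nfatc1 -0.15, and in rejecting against accepted kidney Tox2 -1.29 and Nfatc1 -0.42 in Pdcd1-positive and -0.64 and -1.06 in Pdcd1-negative cells. Members called were then 1 higher and 4 lower between the kidneys (1 higher in positive, 1 higher and 3 lower in negative cells), 0 lower in 1-week against naive spleen and 1 higher at 3 against 1 week in negative cells. DESeq2 and TMM scaling reversed Nr4a3 at 3 against 1 week (-0.13 in both), Batf in the libraries labelled 24-week kidney (0.07 and 0.08), Nfatc1 in 1-week against naive spleen (0.01 in both), Nr4a2 (-0.46 in both), Nr4a3 (-0.43 and -0.45) and Irf4 (-0.09 in both) between the kidneys, Nr4a1 between the spleens (-0.20 and -0.13) and Nfatc1 in the graft-over-spleen difference (-0.06 and -0.03). Between the kidneys both called 1 member higher, also in positive cells, and 2 lower in negative cells, where DESeq2 called 1 higher. DESeq2 also called 1 lower in the graft-over-spleen difference, and in the Pdcd1 split 3 higher and 0 lower at 1 week, 3 higher at 3 weeks and 0 in rejecting kidney. The cause of these changes was not tested.

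Over all cells of the matrix Maf was 0.58 in the libraries labelled 24-week kidney against 3-week kidney (1 member called higher), -0.09 and -0.37 in graft against spleen and 0.61 between the kidneys, Nr4a3 and Nfatc1 in 1-week against naive spleen 0.25 and 0.05, and Tox2 -0.37 between the spleens and 1.56 in the graft-over-spleen difference, where 1 member was called higher. Without dividing cells Maf between the kidneys was 0.99, Tox2 and Nr4a2 in the graft-over-spleen difference 0.41 and 0.16, Maf in the split at 1 week -0.18, and Tox2, Nr4a1 and Batf in that of rejecting kidney 0.07, -0.08 and -0.04. The members called were 5 higher between the kidneys in negative cells, 2 lower in 1-week against naive spleen, 1 lower in the graft-over-spleen difference, and 0 lower between the spleens, in the split at 1 week and in the difference of splits. Without cells with markers of other cells Maf between the kidneys was 0.08, Tox2 and Nfatc1 in the graft-over-spleen difference 0.93 and -0.02, Maf in the split at 1 week -0.02 and Irf4 in that of rejecting kidney 0.01, with 2 called lower between the kidneys in negative cells and in 1-week against naive spleen and 0 lower between the spleens. A fit over all 9 groups also called 0 lower between the spleens. With no filter on low counts 2 were called lower between the kidneys in negative cells and 1 in the graft-over-spleen difference.

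Thinned to 1000 UMIs, Maf was -0.14 in the split at 1 week and 0.14 in that of the libraries labelled 24-week spleen, and Batf -0.45 in that of rejecting kidney. The split then called 2 higher and 0 lower at 1 week, 3 higher at 3 weeks and 0 in rejecting kidney, the difference of splits 0 lower, and rejecting against accepted kidney 2 higher in positive and 2 lower in negative cells. With at least 2 Pdcd1 UMIs Batf in rejecting kidney was -0.00 and the difference of splits called 1 higher. Without the library block the split called 0 higher and 0 lower at 1 week, 2 and 0 at 3 weeks, 1 higher in the libraries labelled 24-week spleen and 0 in rejecting kidney, and the difference of splits 0 lower. Shares not thinned were higher in positive cells of every library in 29 pairs.

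Leaving out 1 library at a time gave -0.81 to 0.23 for Nr4a3 in 1-week against naive spleen. Between the kidneys Maf ranged from -1.98 to 0.54, Nr4a2 from -0.60 to 0.72, Nr4a3 from -0.98 to 0.89 and the members called lower from 2 to 5 (5 without R7K2, also in positive cells, and 1 to 2 in negative cells), where a fit without R7K2 or R7K3 has 1 rejecting library assumed to vary like the accepted ones. Between the spleens Nr4a1 ranged from -0.02 to 0.64, Batf from -0.33 to 0.10 and the members called lower from 0 (without R7S1) to 1. In the graft-over-spleen difference Tox2 ranged from -0.84 to 0.43, Maf from -0.93 to 1.58, Nr4a2 from -1.16 to 0.16, Nr4a3 from -1.88 to 0.20, Nfatc1 from -0.01 to 0.22 and the members called lower from 0 to 1 (1 without 7S1, 7S3 or R7K2). In the Pdcd1 split Nfatc1 at 1 week ranged from -0.09 to 0.02, Irf4 at 3 weeks from -0.01 to 0.11, and in the libraries labelled 24-week spleen Batf from -0.03 to 0.30, Irf4 from -0.22 to 0.82 and Maf from -0.35 to 0.09, with 0 (without 7K2) to 1 called lower at 1 week and 1 to 2 (2 without 7K3) in the difference of splits. The split of rejecting kidney without R7K2 or R7K3 could not be fitted.

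Counts over all genes moved by over 1.5 times in these cases. For rejecting kidney against spleen 1411 genes were called, 868 with DESeq2, 3857 with 1 fit and 649 and 752 without R7S1 and R7S3. For the graft-over-spleen difference 65 were called, 235 with DESeq2, 170 with no filter, 110 with the offset, 174 without dividing cells, 24 without other-marker cells, 187 over all cells and 14 to 143 leaving out 1 library (42, 23, 36, 23, 143, 135, 14, 36 and 27 without 7K1, 7K2, 7S1, 7S2, R7K2, R7K3, R7S1, R7S2 and R7S3). The split called 1867, 988, 589 and 147 genes in the order used before, 524, 328, 148 and 1 with DESeq2, 183, 309, 129 and 18 thinned, and 5, 60, 73 and 0 without the block. It called 1073 and 1062 at 1 week without 7K1 and 7K2, and 380 and 391 in the libraries labelled 24-week spleen without 6MS2 and 6MS3. Without dividing cells it called 788 at 1 week and 23 in rejecting kidney, where leaving out other-marker cells gave 72 and at least 2 Pdcd1 UMIs 47. The difference of splits at 3 against 1 week called 671, and 230 with DESeq2, 294 without dividing cells, 32 thinned, 365 and 391 without 7K1 and 7K2 and 0 without the block, and that of rejecting against accepted kidney 25, and 40 with TMM, 7 with DESeq2, 3 without dividing cells, 10 without other-marker cells, 2 thinned, 5, 11 and 16 without 7K1, 7K2 and R7K3 and 0 without the block. Thinned positive cells gave 5283 of 8171 at 3 against 1 week and 3558 of 6303 between the kidneys, and the offset 3325 of 5355 between the kidneys in negative cells.

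A fit with the number in the library tag as a replicate block, chosen after seeing the data, was made for graft against spleen. It changed no call of a member, and moved the count of all genes called by over 1.5 times only in the graft-over-spleen difference, to 141, where Tox2 was 0.41 and Maf -0.13. Outside 1 week the tags share a number only, with correlations of same-numbered libraries of 0.05 to 0.33 at 3 weeks (4 of 5 kidney libraries were closest to their own number), 0.05 to 0.15 at 24 weeks (3 of 3) and -0.03 to -0.01 in rejection. Depth limited the rejecting spleen most, and its 9 Pdcd1-positive cells allowed no split.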
